A study of Mus musculus with 6 samples.

Results

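The 10 genes described here encode subunits of the transcription factor NF-kB and proteins that regulate NF-kB signalling, most of them by holding it in check. They were taken from the deposited table of 38087 genes by gene symbol: the subunits Rela, Relb, Nfkb1 and Nfkb2, the IkB family genes Nfkbia, Nfkbib, Nfkbie and Nfkbiz, and the feedback regulators Tnfaip3 and Tnip1. Each symbol matched 1 row, and all 10 passed the filter on low values, a value above 0 in at least 3 libraries. Poly-A RNA was measured in bone marrow-derived macrophages of C57BL/6J mice, which were males of 8 to 10 weeks. The cells of both groups were grown for 7 days in M-CSF at 10 ng/ml, the growth factor that drives macrophage differentiation, and then kept for 24 h without it. One group (3 libraries) was then exposed for 6 h to 10 nM resolvin D1 (RvD1), a lipid mediator of the resolution of inflammation made from docosahexaenoic acid, and the other (3 libraries) was left untreated. The series concerns the RvD1 receptor ALX/FPR2 of myeloid cells in limb ischemia. No allele or other agent is named for either group, and a vehicle for the untreated cells is not described in the labels. Whether the 3 libraries of a group stand for separate animals or dishes is not stated in the labels, and p-values therefore cover only how much these samples vary, some or all of which may be technical.

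NF-kB is a family of dimers that wait in the cytoplasm of resting cells, bound to IkB proteins. Signals from pattern recognition and cytokine receptors activate the IKK kinase complex, which marks IkB for destruction and lets the dimers enter the nucleus, where they switch on inflammatory genes in macrophages. Several of the genes switched on are brakes on the same pathway, above all Nfkbia, Nfkbie, Tnfaip3 and Nfkb2, so their transcripts are often read as a gauge of NF-kB activity.

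With RvD1, 1 of the 10 transcripts changed past the test. Nfkbib, which encodes the inhibitor IkB beta, fell to 0.712 of its untreated level (95% interval 0.617 to 0.822; limma adjusted p = 0.0478, n = 3 per group). The other 9 did not pass the limma test, and their fold changes lay between 0.931 for Rela and 1.18 for Tnfaip3. Of all 18899 tested genes, 0.556% were lower (105 genes) and 0.561% higher (106 genes) at the same threshold. With each library centred on its median these counts were 98 and 60. The call for Nfkbib rests on all 6 libraries: without any 1 of them, and with the trends in transcript length and GC content removed, it was not called. In a fit with the replicate number as a block, Nfkbib and Tnfaip3 passed (limma adjusted p = 0.0146 and 0.0303), among 1896 genes of the whole table. The median log2 fold change of the 10 genes was 0.08, beside 0.00 over all tested genes, with 6 positive and 4 negative values. In the text that follows, levels are log2 normalized read numbers as deposited, and a log2 fold change is the RvD1 mean minus the untreated mean.

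**Figure D1:**
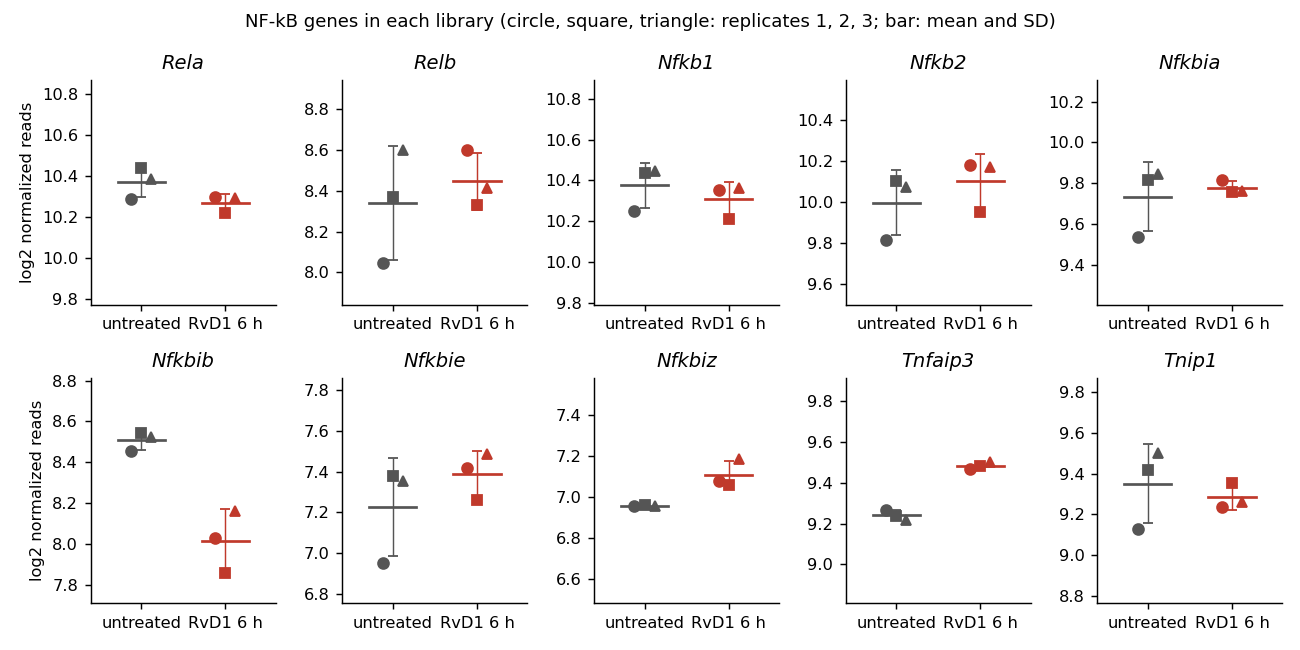
Level of each NF-kB gene in every library, as log2 normalized reads on the vertical axis (each panel spans the same range), with untreated libraries in grey and RvD1 libraries in red; the long bar is the mean and the error bar the SD of 3 libraries. The groups are apart in Nfkbib, Tnfaip3 and Nfkbiz and overlap in the other 7 genes. Of all tested genes, 12.6% were apart with RvD1 higher and 12.8% with RvD1 lower.

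The libraries held an estimated 9.05 to 16.3 M reads each. All 10 macrophage markers on a fixed list, among them Csf1r, Adgre1 and Cd68, stood above 9 (log2) in every library. T and NK cell markers summed to at most 4.59 normalized reads, with Cd3e and Cd3g listed at 0 throughout. Stromal markers were present at 24555 to 28897 summed normalized reads in untreated and 21576 to 36027 in RvD1 libraries, led by the collagen Col1a1, while Lum was listed at 0 in 3 libraries. The summed neutrophil markers ranged from 4174 to 14580 and from 5387 to 14193. The summed endothelial markers ranged from 260 to 433 and from 324 to 952. These sums overlapped between the groups. Single markers leaned upward in some lists, with 4 of 4 endothelial markers (log2 fold changes 0.37 to 0.75), 7 of 8 neutrophil and 5 of 6 stromal markers positive. In other lists they did not, with 1 of 5 dendritic cell, 2 of 4 mast cell and basophil and 0 of 3 erythroid and megakaryocyte markers positive. None of the markers passed the limma test over all genes. The part of these cells in the values given here was not tested. In bulk RNA, fewer cells of a type and less RNA per cell cannot be told apart.

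Rela encodes the subunit that carries most of the activating function in macrophages. The gene lies on chromosome 19 (5637483 to 5648130, plus strand, mm10). In untreated replicates 1 to 3, in that order here and throughout, the level was 10.29, 10.44 and 10.39, and with RvD1 it was 10.30, 10.22 and 10.29. The groups overlapped, and the log2 fold change was -0.10 (SE 0.06, 95% interval -0.24 to 0.03; limma adjusted p = 0.381).

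Nfkb1, whose precursor protein is processed to the DNA-binding partner of Rela, lies on chromosome 3 (135584655 to 135691547, minus strand). It stood at 10.25, 10.43 and 10.45 in untreated and 10.35, 10.21 and 10.36 in RvD1 libraries. Its interval ran from -0.23 to 0.10 around -0.07 (limma adjusted p = 0.652), and leaving out 1 library at a time gave -0.13 (without untreated replicate 1) to -0.02 (without RvD1 replicate 2). For both subunits of the classical dimer the groups overlapped and the interval included 0.

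The remaining subunits belong to the alternative pathway, in which the precursor encoded by Nfkb2 is cut and its product pairs with RelB. Relb (chromosome 7, 19606217 to 19629438, minus strand) was 8.05, 8.37 and 8.60 in untreated libraries and 8.60, 8.33 and 8.41 in those with RvD1 (log2 fold change 0.11, 95% interval -0.21 to 0.42; limma adjusted p = 0.717). Nfkb2 (chromosome 19, 46304320 to 46312385, plus strand) was 9.81, 10.10 and 10.07 against 10.18, 9.95 and 10.17 (0.11, -0.11 to 0.32; limma adjusted p = 0.582). Its exons share 299 bases with Psd on the opposite strand, a gene of mean level 6.65 in untreated cells whose log2 fold change was -0.29 (limma adjusted p = 0.344), and 531 bases with AC114539.1, not analysed here. In both genes untreated replicate 1 was the lowest of the 6 libraries, and without it the values were -0.04 for Relb and 0.01 for Nfkb2.

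Nfkbia encodes IkB alpha, the fast inhibitor that NF-kB itself induces and that resets the pathway (chromosome 12, 55489410 to 55492647, minus strand). It stood at 9.54, 9.82 and 9.85 in untreated and at 9.82, 9.76 and 9.76 in RvD1 libraries. The log2 fold change was 0.04 (95% interval -0.15 to 0.24; limma adjusted p = 0.813), and it turned to -0.05 without untreated replicate 1, which lay apart at the low end.

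Nfkbie, encoding IkB epsilon, another inhibitor induced by NF-kB, lies on chromosome 17 (45555703 to 45563169, plus strand). It was 6.95, 7.38 and 7.35 against 7.42, 7.26 and 7.48. The groups overlapped, with a log2 fold change of 0.16 (95% interval -0.14 to 0.46; limma adjusted p = 0.551) that came to 0.02 without untreated replicate 1. Untreated replicate 1 was the lowest library of its group in 8 of the 10 genes, and RvD1 replicate 2 was the lowest of its group in 8 as well.

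Nfkbib was 8.45, 8.54 and 8.52 in untreated libraries and 8.03, 7.86 and 8.16 in those with RvD1. Every RvD1 library lay below every untreated one. IkB beta is the inhibitor that responds more slowly and is not a typical feedback target of NF-kB. The log2 fold change was -0.49 (SE 0.09), a mean reduction from 8.51 ± 0.05 to 8.02 ± 0.15 (SD, n = 3). The call ended when any 1 library was left out: the limma adjusted p then lay between 0.0547 and 0.177, with log2 fold changes from -0.56 to -0.41. It also ended without the filter on low values (limma adjusted p = 0.0700), with 10 normalized reads added before the log (0.0554), with each library centred on its median (0.0547) and without the trend of variance with level (0.194).

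Nfkbib lies on chromosome 7 (28758251 to 28767512, minus strand, mm10), where its exons share 314 bases with Ccer2 and 42 bases with Sirt2, both on the opposite strand. No step that marks strand is described in the labels, so reads from shared bases cannot be told apart. Ccer2 reached at most 0.93 (log2) and was listed at 0 in 4 of the 6 libraries. Sirt2, a deacetylase, differed by -0.08 on the log2 scale (SE 0.07; limma adjusted p = 0.602).

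Nfkbiz encodes IkB zeta, an atypical nuclear member that acts as a cofactor for a subset of NF-kB targets (chromosome 16, 55811375 to 55838899, minus strand). It was 6.96, 6.96 and 6.96 in untreated libraries and 7.08, 7.06 and 7.18 in those with RvD1, so the groups did not overlap. The log2 fold change of 0.15 (SE 0.09, 95% interval -0.06 to 0.36) did not pass (limma adjusted p = 0.421). The untreated SD of 0.002 was far below the 0.140 expected from counting 87.9 to 141 reads per library, the estimated depth of this gene. Its standard error in limma, which borrows the spread of other genes, was close to the counting error of the difference, 0.107.

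Tnfaip3, which encodes A20, a ubiquitin-editing enzyme that shuts down signalling upstream of IKK, had the largest positive value of the 10 as deposited. After the length and GC correction 4 others, Nfkbie, Nfkb2, Relb and Nfkbiz, were higher. Tnfaip3 lies on chromosome 10 (19000910 to 19015657, minus strand). Untreated libraries stood at 9.27, 9.24 and 9.22, and RvD1 libraries at 9.47, 9.48 and 9.50. All 3 RvD1 libraries lay above all 3 untreated ones. The 1.18-fold difference (95% interval 1.09 to 1.29) had an unadjusted p of 0.00174 and did not pass over all genes (limma adjusted p = 0.0710). Its SDs of 0.02 in both groups were again below the counting error per library, 0.06 in untreated and 0.05 in RvD1 libraries, estimated from 422 to 926 reads. Leaving out 1 library at a time gave log2 values of 0.23 to 0.26, with limma adjusted p between 0.0721 and 0.218.

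Tnip1 encodes ABIN1, an adaptor that brings A20 to its targets (chromosome 11, 54910785 to 54962917, minus strand). It was 9.13, 9.42 and 9.50 in untreated libraries and 9.24, 9.35 and 9.26 in those with RvD1. The groups overlapped (log2 fold change -0.07, 95% interval -0.29 to 0.15; limma adjusted p = 0.754), and values from -0.18 (without untreated replicate 1) to 0.01 (without untreated replicate 3) came from leaving out 1 library.

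Taking the 10 genes by the separation of the groups, 2 were apart with RvD1 higher (Tnfaip3 and Nfkbiz) and 1 with RvD1 lower (Nfkbib). In the table as a whole, 12.6% of tested genes were apart with RvD1 higher and 12.8% with RvD1 lower. At an unadjusted p under 0.05, 1 gene was higher and 1 lower, against 10.3% and 9.65% of all tested genes. Shares of that size amount to about 1 gene in 10 in each direction, so these counts do not set the 10 genes apart from the table.

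Fold changes in these libraries followed the GC content of the transcript, and 6 of the 10 NF-kB genes are rich in GC. The 13024 genes of mean log2 level 5 or more were divided into 5 equal groups by the GC content of the longest transcript. The median log2 fold change went from 0.16 in the group of lowest GC to -0.15 in that of highest GC. Rela, Relb, Nfkb2, Nfkbib, Nfkbie and Tnip1 lay in the highest group, at 55.4% to 59.4% GC. Nfkb1 (44.9%) and Tnfaip3 (47.1%) lay in the second group, where the median was 0.08, Nfkbiz (50.1%) in the third and Nfkbia (52.9%) in the fourth. Tnfaip3 also has the longest transcript of the 10, at 6199 bases, and Nfkbia the shortest, at 1578.

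**Figure D2:**
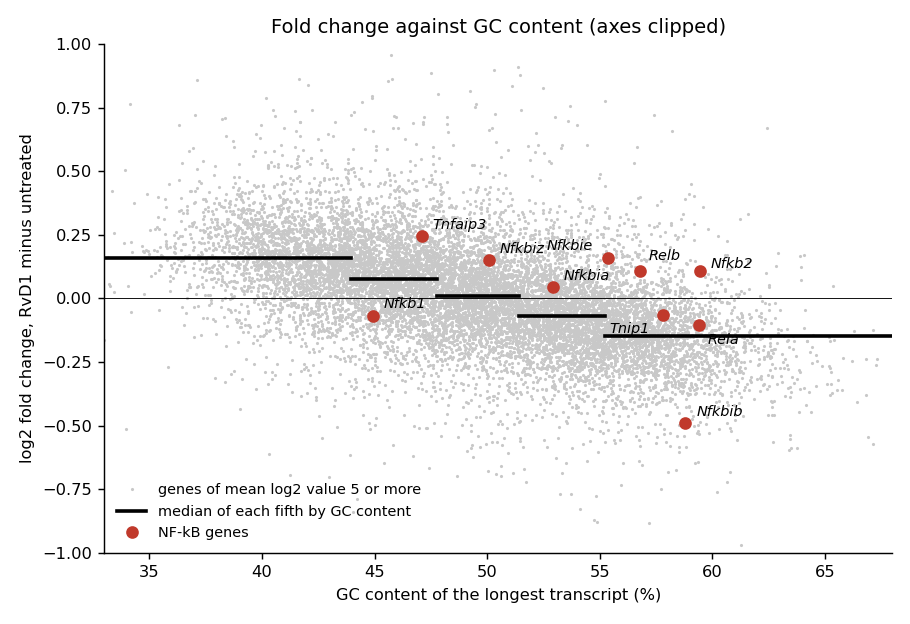
Log2 fold change (vertical axis) against the GC content of the longest transcript in percent (horizontal axis) for single genes in grey, with the median of each of 5 GC groups in black and the 10 NF-kB genes in red; a few genes lie outside the axes. Of the 6 genes in the group of highest GC, Nfkbib sits below the group's median of -0.15, at -0.49, and the other 5 above it.

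After smooth trends with transcript length and GC content were subtracted from each library, 0.189% of 18549 genes passed the limma test in either direction and 0 of the 10 genes did. At an unadjusted p under 0.05, Tnfaip3 and Nfkb2 were higher (5.53% of all genes) and Nfkbib lower (6.85%). Nfkbib went from -0.49 to -0.32 (95% interval -0.48 to -0.16; limma adjusted p = 0.144) and remained lower in every RvD1 library than in any untreated one, with corrected levels of 8.40, 8.45 and 8.42 against 8.06, 8.04 and 8.21. Tnfaip3 went from 0.24 to 0.13 (0.02 to 0.24; limma adjusted p = 0.343). Its groups were still apart, at 9.32, 9.28 and 9.29 against 9.42, 9.40 and 9.46. The share of all genes that were apart after the correction was not computed. As deposited, 12.6% of tested genes were apart with RvD1 higher and 12.8% with RvD1 lower.

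The correction moved upward every gene of the highest GC group, namely Rela, Relb, Nfkb2, Nfkbib, Nfkbie and Tnip1, and also Nfkbia. It moved Nfkb1, Tnfaip3 and Nfkbiz downward. Nfkb2 went from 0.11 to 0.26 (95% interval 0.09 to 0.43; limma adjusted p = 0.232). Its corrected levels of 9.75, 10.01 and 9.99 in untreated and 10.19, 10.14 and 10.21 in RvD1 libraries no longer overlapped. How common such separation is over all corrected genes was not computed. Relb went from 0.11 to 0.24 (-0.05 to 0.52) and Nfkbie from 0.16 to 0.27 (-0.0046 to 0.54). Rela turned from -0.10 to 0.07 (-0.05 to 0.19) and Tnip1 from -0.07 to 0.08 (-0.15 to 0.32), while Nfkb1 went from -0.07 to -0.17 (-0.35 to 0.01). With the correction, 8 of the 10 values were positive, with a median of 0.13 beside 0.00 over all genes, and Nfkb1 and Nfkbib were the negative ones. The GC trend itself went with the groups, so its part and that of RvD1 cannot be told apart: its slope per SD of GC content was 0.04 to 0.06 in the untreated libraries and -0.01, -0.11 and -0.03 in RvD1 replicates 1, 2 and 3.

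**Figure D3:**
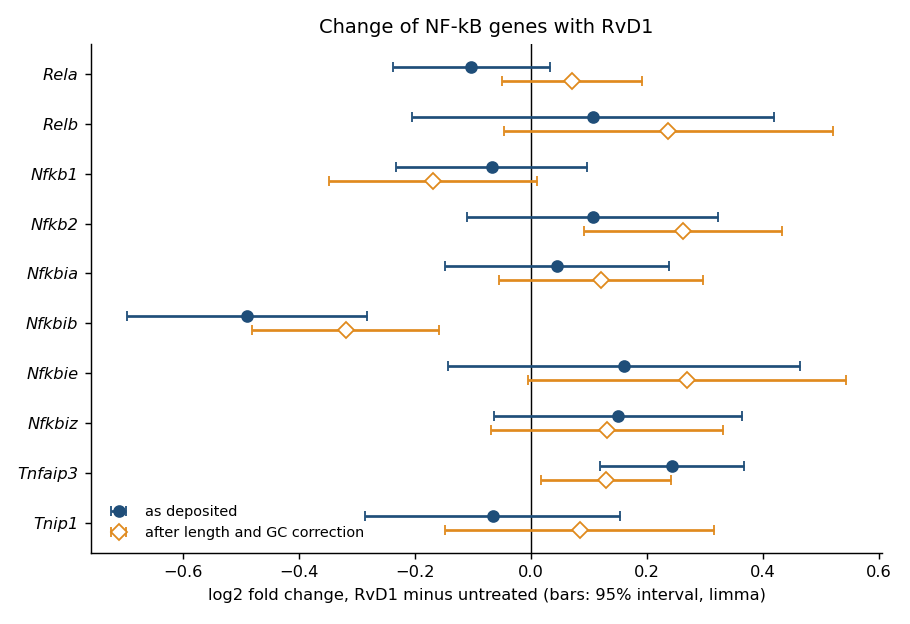
Log2 fold change with its 95% interval in limma (horizontal axis, RvD1 minus untreated, n = 3 per group) for each NF-kB gene as deposited (filled circles) and after the length and GC correction (open diamonds). The Nfkbib interval lies below 0 in both, from -0.70 to -0.28 and from -0.48 to -0.16, and Rela and Tnip1 change sign.

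To compare levels between genes, values were set per kb of the longest transcript. In untreated cells Nfkbia was the most abundant, at 9.08 ± 0.17 (log2 normalized reads per kb, SD, n = 3), followed by Rela at 8.93 ± 0.08, whose libraries overlapped with those of Nfkbia. Nfkb1 (8.32 ± 0.11) and Nfkb2 (8.05 ± 0.16) came next, then Tnip1 (7.78 ± 0.19), whose range overlapped that of Nfkb2, and Nfkbib (7.46 ± 0.05). Relb (6.63 ± 0.28) and Tnfaip3 (6.61 ± 0.02) could not be separated. Nfkbie (5.64 ± 0.24) and Nfkbiz (4.92 ± 0.0022) were the lowest, with the per kb level of Nfkbia 17.9 times that of Nfkbiz. With RvD1 the order was the same but for Relb and Tnfaip3, which changed places at 6.74 ± 0.14 and 6.85 ± 0.02 per kb. Set per kb of the median transcript, Rela came first and Nfkbia second.

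**Figure D4:**
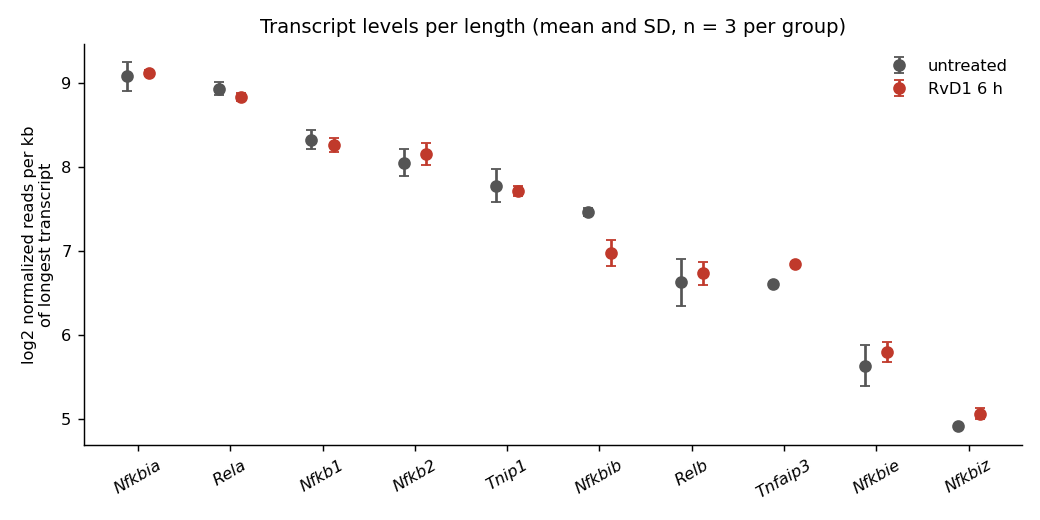
Level of each NF-kB gene per kb of its longest transcript (vertical axis, log2 normalized reads per kb; mean and SD of 3 libraries) in untreated (grey) and RvD1 (red) libraries, ordered by the untreated mean. Nfkbia and Rela lead at 9.08 and 8.93 and Nfkbiz is the lowest at 4.92.

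Ratios within a library show how the balance between partners moved. These are descriptions with no test, and the pairs of genes were chosen after their values were seen. How often such ratios are apart over all genes was not computed. Of single tested genes, 12.6% were apart with RvD1 higher and 12.8% with RvD1 lower. The 4 IkB genes summed per kb, divided by the 4 subunit genes summed per kb, gave a log2 ratio of -0.58, -0.56 and -0.54 in untreated and -0.60, -0.54 and -0.59 in RvD1 libraries. That balance overlapped between the groups. So did the balance without Nfkbiz, with means of -0.62 ± 0.03 in untreated and -0.64 ± 0.04 in RvD1 libraries. Ratios to Nfkbib followed its lower level with RvD1. The log2 ratio of Nfkbia to Nfkbib per kb was 1.47, 1.66 and 1.71 in untreated libraries and 2.17, 2.29 and 1.98 in those with RvD1, and the groups were also apart after the length and GC correction, with means of 1.66 ± 0.13 and 2.10 ± 0.12. The ratio of Nfkbie to Nfkbib moved likewise, from -1.82 ± 0.19 to -1.17 ± 0.04. The ratio of Nfkbia to Nfkbie, which does not involve Nfkbib, overlapped between the groups, at 3.52, 3.37 and 3.42 against 3.33, 3.43 and 3.21, and was apart after the correction, with means of 3.45 ± 0.07 and 3.31 ± 0.09.

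Among the subunits, the log2 ratio of Nfkb1 to Nfkb2 per kb was 0.33, 0.23 and 0.26 in untreated libraries and 0.06, 0.16 and 0.08 in those with RvD1. The groups did not overlap, and after the length and GC correction the means were 0.40 ± 0.03 and -0.03 ± 0.08. The ratio of Rela to Relb overlapped, at 2.51, 2.34 and 2.06 against 1.97, 2.16 and 2.15. Tnfaip3 over Tnip1 also overlapped, at -0.92, -1.24 and -1.34 against -0.83, -0.93 and -0.82.

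The DNA next to the start sites was searched for the sequence that NF-kB itself binds, and sites elsewhere were not sought. RefSeq promoter windows (GRCm38.p6, 250 bases before to 50 after a start) were matched for 7 of the 10 genes, and not for Relb, Nfkb1 and Nfkbiz. The NF-kB consensus motif, of 10 bases and searched on both strands with overlapping matches counted, was present in a window of 5 of the 7: Nfkbia, Nfkbie, Nfkb2, Tnfaip3 and Tnip1. Over all 27025 genes with a window, 9.55% had a match. A match describes the sequence only and does not show that a factor was bound. The stretches below are those of the feedback genes upstream of a start and outside annotated exons, read 5′ to 3′ on the strand of the gene, with the motif in capitals, and the last line gives for contrast the 40 bases before the start of Nfkbib, whose window held no match.
Nfkbia (chr12:55492652-55492691, minus strand): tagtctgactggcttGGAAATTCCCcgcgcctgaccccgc
Nfkbie (chr17:45555579-45555618, plus strand): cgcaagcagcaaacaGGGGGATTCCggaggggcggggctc
Tnfaip3 (chr10:19015411-19015437, minus strand): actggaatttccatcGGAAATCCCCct
Tnip1 (chr11:54962973-54963012, minus strand): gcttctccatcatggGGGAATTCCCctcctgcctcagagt
Nfkbib (chr7:28766645-28766684, minus strand): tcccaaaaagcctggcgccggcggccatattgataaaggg

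Relative to the start site, the motif begins at -29 in Nfkbia, -106 in Nfkbie, -12 in Tnfaip3 and -57 in Tnip1. In Tnip1 it is the middle one of 3 overlapping matches. The printed Tnfaip3 stretch lies before a RefSeq start site but inside the annotated gene, whose 5′ end is at 19015657. The matches of Nfkb2 lie in or beside annotated exons of Nfkb2 or AC114539.1, and a further match of Tnfaip3 at -125 in an exon of Tnfaip3, and they are not printed. Set beside the RNA, Nfkbia, Nfkbie, Tnfaip3 and Tnip1 had log2 fold changes of 0.04, 0.16, 0.24 and -0.07, and Nfkb2 had 0.11. None of these genes with a match passed the limma test. Nfkbib and Rela, with no match in the window, had -0.49 and -0.10. After the length and GC correction, Nfkbia, Nfkbie, Tnfaip3, Tnip1 and Nfkb2 had 0.12, 0.27, 0.13, 0.08 and 0.26. Nfkbib and Rela then had -0.32 and 0.07. The window of Nfkbib reached to 28766894, short of the annotated 5′ end of the gene at 28767512, and the sequence beyond it was not searched.

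Around these genes, 88 of 91 listed genes of the NF-kB pathway could be tested and 0 passed the limma test over all genes. Without adjustment, 19 of the 88 were higher (p under 0.05) and 7 lower, where 10.3% and 9.65% of all tested genes were. Corrected for length and GC, 7 were higher and 4 lower, against 5.53% and 6.85% of all genes, with no corrected value for Bcl2a1d. The IKK complex and its upstream kinases (15 genes) had a median log2 fold change of 0.06, and at an unadjusted p under 0.05 it held 1 higher gene, Ripk1, and 1 lower gene, Map3k14. The core subunits showed values of 0.11 for Chuk, -0.05 for Ikbkb and -0.06 for Ikbkg, all with overlapping groups. Map3k14, the kinase NIK that starts the alternative pathway, was 8.57, 8.58 and 8.72 in untreated libraries and 8.15, 8.22 and 8.48 in those with RvD1 (-0.34, SE 0.10; limma adjusted p = 0.111). Ripk1, a kinase at the tumor necrosis factor receptor, was 10.27, 10.45 and 10.37 against 10.68, 10.55 and 10.68 (0.27, SE 0.07; limma adjusted p = 0.0807). The groups were apart in both, in opposite directions, and the corrected values were -0.21 and 0.12. Tab3 and Tab2, which bind ubiquitin chains for the kinase TAK1, had values of 0.19 and 0.08 (limma adjusted p = 0.359 and 0.421). Without untreated replicate 2 the value of Tab3 was 0.11, and without RvD1 replicate 2 it was 0.12.

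Adaptors and ubiquitin ligases (18 genes) had a median of -0.05. By unadjusted p, 2 of the 18 were higher and 3 lower, against 10.3% and 9.65% of all genes. With the length and GC correction 1 was higher and 4 lower, against 5.53% and 6.85% of all genes. Tradd, the adaptor of the same receptor, was at -0.39 (SE 0.10; limma adjusted p = 0.0896), and Birc2, a ubiquitin ligase, at 0.38 (SE 0.10; limma adjusted p = 0.0960). Ube2v1, a cofactor for ubiquitin chains, and Malt1, a protease, stood at -0.27 and 0.22 (limma adjusted p = 0.116 and 0.207). Corrected for length and GC, these 4 values were -0.24, 0.27, -0.16 and -0.04.

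Of the other REL and IkB family genes (6 genes, median -0.11), Rel, the subunit c-Rel, was 6.81, 7.07 and 7.08 in untreated libraries and 7.17, 7.55 and 7.52 in those with RvD1. Its groups were apart at 0.43 (SE 0.13; limma adjusted p = 0.133), with 0.22 once corrected for length and GC. The atypical IkB genes Bcl3 and Nfkbid had values of -0.41 and -0.29 (limma adjusted p = 0.211 and 0.248), with overlapping groups, and Bcl3 stood at -0.23 without RvD1 replicate 2. Nkiras2, which binds IkB, had a value of -0.09 (limma adjusted p = 0.487) that turned to 0.04 after the correction.

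The 16 other negative regulators had a median of 0.13, which the length and GC correction brought to 0.01. By unadjusted p, 4 of the 16 were higher and 1 lower, against 10.3% and 9.65% of all genes, and with the correction 1 was higher and 0 lower. Cyld, a deubiquitinase that opposes IKK activation, stood at 0.26 (SE 0.06; limma adjusted p = 0.0803) and at 0.06 with the correction. Itch, a ubiquitin ligase that works with A20, and Tank, an adaptor that restrains TRAF signalling, stood at 0.20 and 0.25 (limma adjusted p = 0.106 and 0.174), and at 0.03 and 0.09 with the correction. Irak3, which blocks signalling below Toll-like receptors, was 7.28, 7.35 and 7.40 in untreated libraries and 7.49, 7.62 and 7.98 in those with RvD1, and its value of 0.36 (SE 0.13; limma adjusted p = 0.179) was 0.35 after the correction and 0.21 without RvD1 replicate 3.

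Of 33 tested textbook targets of NF-kB, 0 passed the limma test over all genes. Their median log2 fold change was 0.25, beside 0.00 over all tested genes, and 29 values were positive. By unadjusted p (under 0.05), 11 of the 33 were higher and 0 lower, where 10.3% and 9.65% of all tested genes were. Corrected for length and GC, and without Bcl2a1d, which had no corrected value, the median was 0.23. Of these corrected values 27 were positive, and 5 genes were higher, against 5.53% of all genes. The size of this shift rested on single libraries: without untreated replicate 1 the median was 0.12 with 17 of 33 values positive, and without RvD1 replicate 3 it was 0.10 with 24. In those fits 8 and 4 targets were higher by unadjusted p, against 9.53% and 8.67% of all genes. Lower were 1 and 0, against 8.67% and 8.28% of all genes. Leaving out any other library gave medians of 0.24 to 0.31. Among the 26 targets of mean log2 level 5 or more, the median was 0.20 and 22 were positive. Some marker lists of other cells had medians of like size or above, 0.68 for endothelial, 0.29 for neutrophil and 0.25 for stromal markers. Others were lower, at 0.12 for mast cell and basophil, -0.03 for dendritic cell, -0.17 for erythroid and megakaryocyte and -0.21 for B cell markers. The part of these cells in the values of the targets was not tested. The target list was drawn up with earlier results of these data known. Ier3, an immediate early gene that limits cell death, was 8.73 ± 0.10 (SD, n = 3) in untreated and 9.04 ± 0.04 in RvD1 libraries, with the groups apart (0.31, SE 0.07; limma adjusted p = 0.0759), and 0.43 after the correction (SE 0.06; limma adjusted p = 0.0506). Cd83, an activation marker of antigen-presenting cells, was 7.36, 7.46 and 7.83 against 8.06, 8.00 and 8.39 (0.60, SE 0.15; limma adjusted p = 0.0805). The chemokine Ccl7 had a value of 0.64 (SE 0.18; limma adjusted p = 0.102). Cflar, an inhibitor of caspase 8, had one of 0.23 (SE 0.06; limma adjusted p = 0.109) that went to 0.07 after the correction.

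**Figure D5:**
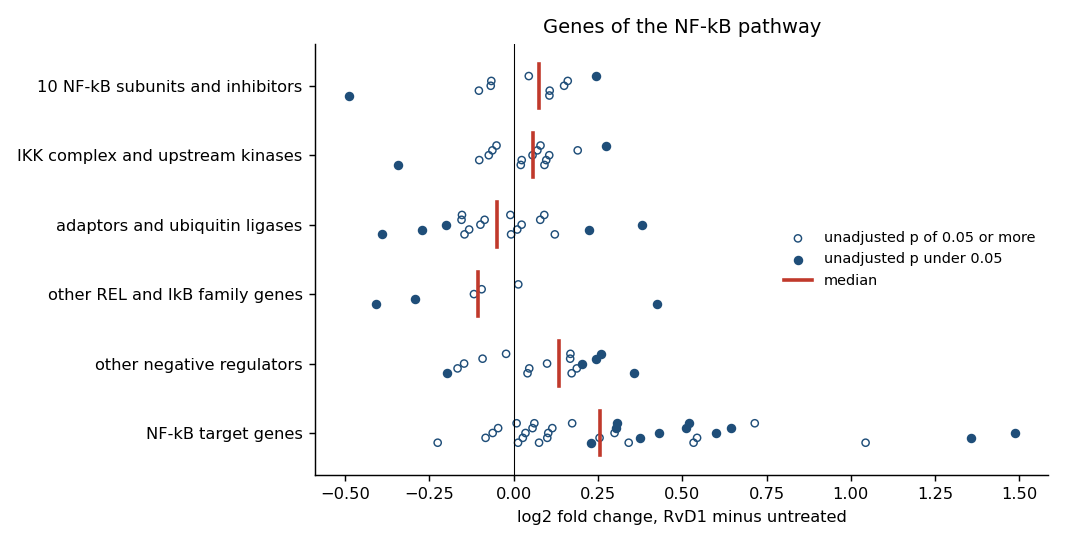
Log2 fold change (horizontal axis, RvD1 minus untreated) of every tested gene in the group of 10 and in 5 lists of pathway genes, with filled circles at an unadjusted p under 0.05 and a red bar at each median. The median is 0.25 for the target genes and 0.08 for the 10 subunits and inhibitors.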

How the data were processed

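RNA was measured by poly-A sequencing in 6 libraries, grouped by sample titles. The authors deposited 1 table whose column names call the values normalized. The submitters' processing notes list TopHat2 2.0.7 and mm10. For the counter, the annotation and the normalization, the sources used here give no name. The deposited values were taken to be on a log2 scale of normalized reads, since none lay below 0, the highest was 17.4 and antilogs summed to 12.4 to 12.8 M per library; a value of 0 stands for 1 normalized read or less. The table writes decimals with commas. Depth was estimated from the step between low values that stands for 1 read. Among low values (20 reads or fewer), 40.4% to 51.4% came within 0.02 reads of a whole number, so no count test was run. Counting errors were derived from these estimated reads and cover counting only.

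Genes above 0 in at least 3 libraries were tested with limma 3.58.1 in R 4.3.3 (variance trend, treatment only, two-sided, 4 residual and 4.62 prior degrees of freedom) and adjusted by Benjamini-Hochberg over all 18899, threshold 0.05. Lengths, GC content and coordinates came from GENCODE M21, in which 95.3% of identifiers were found. The correction subtracted splines with 4 interior knots in log2 length and GC content from each library's deviations from gene means. The named genes were the 10 members and, from each pathway list, any gene past the test and up to 4 of smallest p. Chuk, Ikbkb and Ikbkg, and all pairs of genes set in ratio, were chosen after their values were seen. The members and lists were chosen with earlier results of these data known. Alternatives were other filters, scalings and variance models, a replicate block and each library left out.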

Additional observations from a re-analysis of the deposited data

How the results depend on the processing

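The whole table gave 211 calls as deposited. It gave 12 without the filter on low values, 464 among genes of mean log2 level 5 or more, 1 without the variance trend, 35 after the length and GC correction, 1896 with a replicate block and 746 with the replicate block and the correction together. Leaving out 1 library gave 0 to 451 calls, the highest without RvD1 replicate 1, and the other 5 gave 0 to 5. Of the 10 NF-kB genes, 0 passed without the filter, with 10 normalized reads added, with median centring, without the variance trend and after the length and GC correction, and 0 when any 1 library was left out, with an unadjusted limma p for Nfkbib of at most 0.00332 in those fits. With a replicate block 2 passed: Nfkbib (limma adjusted p = 0.0146) and Tnfaip3, the latter at 0.24 with limma adjusted p = 0.0303. Nfkbib also passed with the block and the correction together (0.0441), with quantile normalization (0.0471) and among genes of mean level 5 or more (0.0340). With the block, 13 of the 88 tested pathway genes passed, beside 1896 of all 18899 tested genes. With the block and the correction together 3 passed, beside 746 of 18549 genes.

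Same-numbered libraries of the groups deviated together in replicates 1 and 3 (r = 0.301 and 0.417 across 13176 genes) but not in replicate 2 (-0.08). The libraries of replicate 2 did not correlate best with their own number, and the numbers were not treated as pairs in the main fit. Other values followed the number in every replicate. Antilogs summed to 12.40, 12.67 and 12.78 M in untreated and 12.46, 12.67 and 12.77 M in RvD1 replicates 1, 2 and 3. The highest log2 values were 17.17, 17.29 and 17.43 against 17.15, 17.31 and 17.43. Whether the numbers mark pairs was not settled, so calls are given both without and with the replicate block.

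Nfkbib was -0.49 without the filter, -0.47 with 10 normalized reads added, -0.50 with median centring, -0.49 without the variance trend and -0.32 after the length and GC correction, and did not pass in any of these. It ranged from -0.56 to -0.41 when 1 library was left out. Some uncalled values changed sign. After the correction, with and without the replicate block, Rela was 0.071, Tnip1 0.084, Nkiras2 0.040, Tab3 -0.0074 and Malt1 -0.040. When 1 library was left out, Relb ranged from -0.039 to 0.24, Nfkbia from -0.052 to 0.10 and Tnip1 from -0.18 to 0.0087. The cause was not tested. The fits of the target genes without each library and at a mean level of 5 or more were chosen after seeing the data, and the median of the targets ranged from 0.10 to 0.31 without 1 library. The change in the balance of IkB to subunit genes was -0.02 per kb of the longest and -0.01 per kb of the median transcript. Depth limits Nfkbiz and Nfkbie most: the counting error of their difference was 0.107 and 0.0977 on the log2 scale.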
